A study of Homo sapiens with 59 samples.

Results

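The 28 genes described here encode the enzymes that make cholesterol from acetyl-CoA, the proteins that sense sterols in the endoplasmic reticulum, and 2 sterol carriers. They were chosen by name, as members of the pathway, with earlier results of these data known, and are given in pathway order. They are 28 of the 60675 genes in the deposited table, and all 28 passed the filter on low counts, among 18568 genes tested. By role they are 8 genes of the mevalonate pathway (ACAT2, HMGCS1, MVK, PMVK, MVD, IDI1, FDPS and GGPS1), 12 enzymes from squalene onward (FDFT1, SQLE, LSS, CYP51A1, TM7SF2, LBR, MSMO1, NSDHL, HSD17B7, EBP, SC5D and DHCR7), 6 genes of sterol sensing (INSIG1, INSIG2, SREBF2, SCAP, MBTPS1 and MBTPS2) and the sterol carriers STARD4 and TMEM97. None of the 28 encodes a lipoprotein receptor, so uptake of cholesterol is not described.

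RNA was measured in bulk in 59 libraries of the A549 line, a standard cell line grown from a human lung carcinoma, 24 h after a herbal extract or vehicle was added. All extracts were made with 70% ethanol. The doses of Coptidis Rhizoma, a rhizome drug, were 4.4, 22 and 110 µg/mL. Those of Bupleuri Radix, a root drug, were 7.6, 38 and 190 µg/mL. The other medicines were given at 20, 100 and 500 µg/mL: the fruit Zizyphi Fructus, the peel Citri Unshius Pericarpium, the rhizome Cimicifugae Rhizoma, the processed root Aconiti Lateralis Radix Preparata, and the multi-herb formulas Yijung-tang and Banhasasim-tang. The 3 doses are called low, medium and high. Coptidis Rhizoma, Zizyphi Fructus and Yijung-tang had 2 libraries at each dose, Bupleuri Radix, Cimicifugae Rhizoma and Citri Unshius Pericarpium 3 at each dose, Aconiti Lateralis Radix Preparata 3 at the high and low doses and 2 at the medium dose, and Banhasasim-tang 1 at each dose. The vehicle, DMSO, had 3 libraries; the sample labels give it as 0.1% and the series text as 2%. All cells are from 1 line, and the labels do not say whether libraries of a group came from separate cultures, so p-values measure the spread between these libraries, which may be technical.

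Cholesterol synthesis is controlled by feedback. The transcription factor SREBP-2, the product of SREBF2, is made as a precursor in the membrane of the endoplasmic reticulum, where SCAP escorts it. When sterols are plentiful, INSIG1 and INSIG2 hold SCAP and the precursor there; when sterols are scarce, the complex moves to the Golgi and the proteases encoded by MBTPS1 and MBTPS2 release the active factor. SREBP-2 then turns on most enzyme genes of the pathway and also INSIG1 and its own gene, often together with the CCAAT-binding factor NF-Y. RNA of these genes is therefore a widely used readout of the state of the pathway.

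INSIG1 (ENSG00000186480) lies at chr7:155297776-155310235 on the plus strand, MSMO1 (ENSG00000052802) at chr4:165327623-165343160 on the plus strand and HMGCS1 (ENSG00000112972) at chr5:43289395-43313512 on the minus strand (GENCODE 29, GRCh38). For most of the genes, RefSeq gives a window upstream of the start of transcription (build GRCh38.p14), and the 250 bases before the start were searched on both strands for the CCAAT box (CCAAT) and for the core of the sterol regulatory element in the form TCACNCCA. A CCAAT box was present in 18 of the 25 genes with a window, or 72.0%, against 37.0% of 27305 genes. The form TCACNCCA was present in 3 of the 25, or 12.0%, against 3.92% of all genes; the 3 were MVK, MSMO1 and SREBF2. A CCAAT box was present in 10 of the 11 genes with a window that were called in 3 or more of the 21 comparisons with vehicle described below, and in 2 of the 6 genes called in none. CYP51A1 was the gene of the 11 that lacked it, and GGPS1 and SC5D were the 2 of the 6 that had it. This grouping is from the fit of all 59 libraries. Of the 6, at least GGPS1, SC5D and MBTPS2 were called against vehicle in the fit of 55 libraries described below. The motif hits are matches of letters and not measured binding sites. No window was used for ACAT2, FDFT1 and SQLE. The windows of 6 genes are shown as examples, and they leave out the exceptions CYP51A1, GGPS1 and SC5D. Of the genes shown, INSIG1, HMGCS1, MSMO1, MVK and SREBF2 moved with several extracts. In the fit of all 59 libraries MBTPS2 was called in no comparison with vehicle. The 6 windows hold 1, 2, 4, 5, 1 and 0 CCAAT boxes in that order. HMGCS1 has 2 windows in RefSeq, and the one with more CCAAT boxes is shown. Each is read 5′ to 3′ on the strand of its gene, ends at the base before the start, and has matches of either motif, on either strand, in capitals.
INSIG1, chr7:155297628-155297877, plus strand: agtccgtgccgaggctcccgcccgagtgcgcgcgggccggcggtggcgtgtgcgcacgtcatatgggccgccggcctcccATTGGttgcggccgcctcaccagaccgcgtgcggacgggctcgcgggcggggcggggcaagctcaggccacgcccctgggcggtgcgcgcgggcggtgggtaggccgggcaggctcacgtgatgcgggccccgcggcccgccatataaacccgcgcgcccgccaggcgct
HMGCS1, chr5:43313413-43313662, minus strand: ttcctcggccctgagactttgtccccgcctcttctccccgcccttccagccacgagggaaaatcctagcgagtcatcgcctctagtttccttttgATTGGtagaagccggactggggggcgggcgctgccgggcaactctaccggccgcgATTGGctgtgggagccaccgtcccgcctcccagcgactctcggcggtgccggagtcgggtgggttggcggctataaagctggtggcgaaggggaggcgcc
MSMO1, chr4:165327419-165327668, plus strand: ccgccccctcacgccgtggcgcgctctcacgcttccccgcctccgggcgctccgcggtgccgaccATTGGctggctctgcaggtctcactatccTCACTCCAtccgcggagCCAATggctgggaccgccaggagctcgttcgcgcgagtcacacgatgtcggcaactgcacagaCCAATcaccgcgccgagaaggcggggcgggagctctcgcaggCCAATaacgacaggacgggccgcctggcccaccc
MVK, chr12:109573544-109573793, plus strand: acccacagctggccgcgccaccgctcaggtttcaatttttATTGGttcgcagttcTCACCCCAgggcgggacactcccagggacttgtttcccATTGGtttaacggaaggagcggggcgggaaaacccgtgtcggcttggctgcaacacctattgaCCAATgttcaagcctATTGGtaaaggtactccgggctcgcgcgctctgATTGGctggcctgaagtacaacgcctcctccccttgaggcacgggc
SREBF2, chr22:41832855-41833104, plus strand: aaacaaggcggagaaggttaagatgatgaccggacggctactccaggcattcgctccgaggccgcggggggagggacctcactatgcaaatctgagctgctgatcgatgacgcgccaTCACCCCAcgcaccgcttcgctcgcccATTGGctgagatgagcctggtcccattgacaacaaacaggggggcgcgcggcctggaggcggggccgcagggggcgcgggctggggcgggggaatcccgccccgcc
MBTPS2, chrX:21839367-21839616, plus strand: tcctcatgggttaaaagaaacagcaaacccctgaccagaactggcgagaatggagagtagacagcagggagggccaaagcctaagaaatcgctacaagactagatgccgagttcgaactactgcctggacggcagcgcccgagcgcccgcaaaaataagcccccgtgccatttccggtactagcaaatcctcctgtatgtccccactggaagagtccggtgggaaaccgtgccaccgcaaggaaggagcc

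In vehicle-treated cells all 28 genes were expressed. Per kilobase of exon, the highest levels were those of TMEM97, an endoplasmic reticulum protein that binds sterols (46.3 CPM, counts scaled to library size, per kilobase), HMGCS1, which makes HMG-CoA (42.8 CPM per kilobase), and CYP51A1, the lanosterol demethylase (32.2 CPM per kilobase). The lowest were those of TM7SF2, a sterol reductase (1.54 CPM per kilobase), INSIG2 (2.61 CPM per kilobase) and HSD17B7, a sterol ketoreductase (2.65 CPM per kilobase). Together the 28 genes took 0.192% to 0.194% of the counts of the vehicle libraries. That share was 0.315% and 0.329% in the 2 libraries of the high Yijung-tang dose, the highest of the series, and 0.137% to 0.14% across the high dose of Coptidis Rhizoma and the medium dose of Aconiti Lateralis Radix Preparata, the lowest of the series. All other values below are CPM, scaled between libraries by the TMM method and not divided by length, and a gene is called changed when edgeR's quasi-likelihood test gave a Benjamini-Hochberg adjusted p below 0.05 over all genes tested.

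Libraries held 17214755 to 39751161 counts. The A549 epithelial markers KRT8, KRT18, KRT7, AKR1B10 and ALDH1A1 were at 1584 CPM or more in every library, while the leukocyte, endothelial and hepatocyte markers PTPRC, CD3E, PECAM1, CDH5 and ALB did not pass 0.155 CPM in any. COL3A1, a fibroblast collagen, lay between 0.569 and 2.84 CPM. A code in the sample descriptions puts the extracts into 4 sets of 2 (Coptidis Rhizoma with Zizyphi Fructus, Citri Unshius Pericarpium with Cimicifugae Rhizoma, Bupleuri Radix with Aconiti Lateralis Radix Preparata, Yijung-tang with Banhasasim-tang) and gives the vehicle a code of its own; whatever the code stands for cannot be told apart from an effect that both extracts of a set have against vehicle. Comparisons between doses or extracts of a set do not use the vehicle. In total 4 libraries stood apart on the first principal component (scores of 41 to 107, against at most 15.5 in the other 55): the third replicates of the high and medium Citri Unshius Pericarpium doses and the second replicates of the medium and low Cimicifugae Rhizoma doses. In these 4, PMVK lay at 37.1 to 112.7 CPM, above its 13.9 to 34.2 CPM in the other 55, and MBTPS2 at 42.7 to 58.8 CPM, below its 72.4 to 89.1 CPM. The 4 also had the most counts from genes annotated as antisense, 3149 to 4600 CPM, against at most 3137 CPM in the other 55. Since all libraries share 1 estimate of the spread, counts are also given from a fit of the other 55 libraries where they differ.

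**Figure D1:**
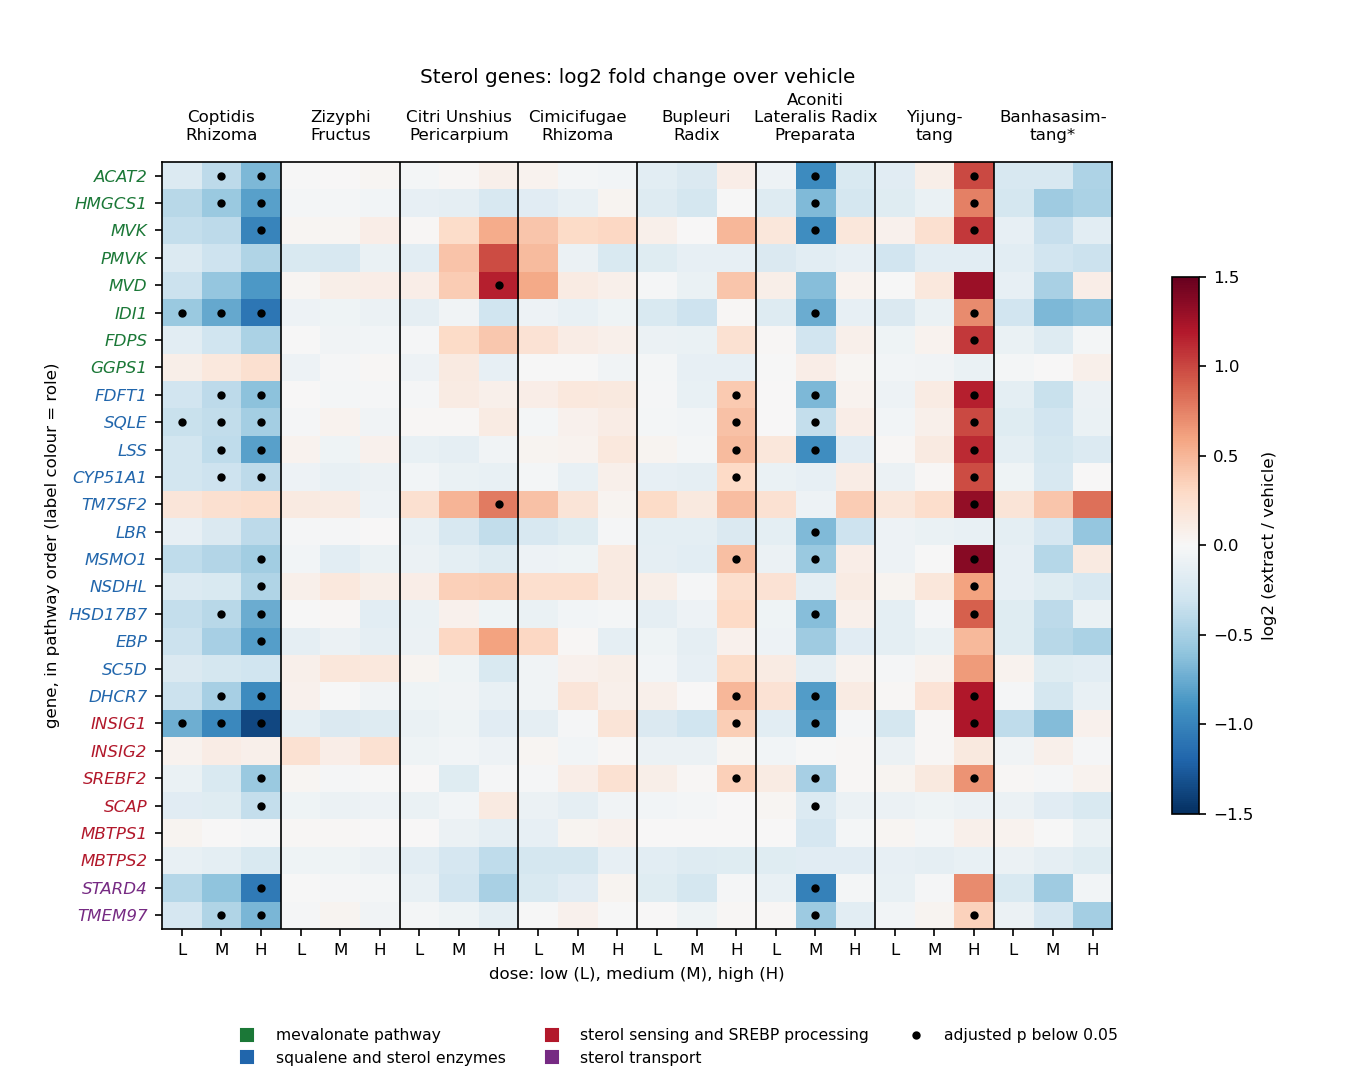
Log2 fold change over vehicle of the 28 genes (rows, in pathway order, label colour by role) at the low, medium and high dose of 8 extracts (columns); red is higher and blue lower than vehicle, and dots mark an adjusted p below 0.05. Banhasasim-tang (asterisk) had 1 library a dose and no test. Dots stand in the high Yijung-tang column (17 genes higher), the high Bupleuri Radix column (8 higher), the Coptidis Rhizoma columns (3, 11 and 18 lower from low to high dose), the medium Aconiti Lateralis Radix Preparata column (16 lower) and the high Citri Unshius Pericarpium column (2 higher).

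At its high dose Yijung-tang raised most of the pathway, by 1.27-fold (TMEM97) to 2.58-fold (MSMO1) among the genes that passed the test, and at its lower doses none of the 28 genes was called. At the high dose 17 of the 28 were called higher than vehicle and none lower, where 0.781% of all tested genes were called higher and 0.587% lower. The median log2 fold change of the 28 was 0.74, against 0.00 over all tested genes. By role, 5 of the 8 mevalonate genes, 9 of the 12 enzymes from squalene onward, 2 of the 6 sensing genes and 1 of the 2 carriers rose. In the fit of the other 55 libraries 21 were higher, beside 4.44% of all genes, the additions being MVD, EBP, SC5D and STARD4. As in every bulk library here, more RNA in each cell and a larger share of cells with much of it cannot be told apart.

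The largest rise was that of MSMO1, the enzyme that removes methyl groups at carbon C-4 of sterols. It had 101 and 111 CPM at the high Yijung-tang dose, against 39.8, 42.1 and 41.7 CPM in vehicle libraries (edgeR log2 fold change 1.37 ± 0.12, adjusted p = 3.47e-10; ± is the standard error of a log2 fold change here and below). Both treated libraries lay above every vehicle library. TM7SF2, next in size, had 14.1 and 12.2 CPM against 5.05, 5.72 and 5.02 CPM (edgeR log2 fold change 1.32 ± 0.24, adjusted p = 0.000921); its call was lost without replicate 1 of the high dose. INSIG1 had 86.3 and 82.03 CPM against 35.5, 35.3 and 38.0 CPM (edgeR log2 fold change 1.21 ± 0.12, adjusted p = 9.11e-10). DHCR7, which completes cholesterol by reducing its last precursor, had 219.5 and 208 CPM against 94.5, 90.6 and 93.0 CPM (edgeR log2 fold change 1.21 ± 0.12, adjusted p = 5.7e-09). The last enzyme of the pathway and the feedback gene INSIG1 thus had nearly the same fold change.

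The enzymes that make and close squalene moved by similar amounts. FDFT1, squalene synthase, had 265 and 261 CPM at the high Yijung-tang dose, against 117, 112 and 123 CPM in vehicle libraries, a log2 fold change of 1.16 ± 0.07. SQLE, squalene epoxidase and a rate-limiting step, had 255 and 255 CPM, against 135, 123 and 126 CPM in vehicle libraries, a log2 fold change of 0.99 ± 0.07. LSS, lanosterol synthase, had 84.4 and 87.0 CPM against 39.5, 38.2 and 40.5 CPM, a log2 fold change of 1.12 ± 0.09. For these 3 genes the fitted levels were 1.99 to 2.24 times the vehicle level, and the libraries did not overlap. CYP51A1 had 219.6 and 236 CPM against 117, 115 and 114 CPM (log2 fold change 0.98 ± 0.08). HSD17B7 had 24.8 and 22.3 CPM against 13.0, 12.6 and 12.5 CPM (log2 fold change 0.89 ± 0.11). HSD17B7 has a near-identical pseudogene, so its reads may be split. NSDHL, the sterol dehydrogenase that acts beside MSMO1, rose less, at 55.2 and 55.5 CPM against 36.6, 35.7 and 37.0 CPM (log2 fold change 0.60 ± 0.13), and its call was lost without either treated library.

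Early in the pathway, ACAT2, the cytosolic acetoacetyl-CoA thiolase, had 62.6 and 68.1 CPM at the high Yijung-tang dose, against 33.7, 31.7 and 33.2 CPM in vehicle libraries (log2 fold change 0.99 ± 0.11). HMGCS1 had 327 and 354 CPM against 202, 206 and 197 CPM (log2 fold change 0.76 ± 0.12). MVK, mevalonate kinase, had 50.8 and 44.0 CPM against 23.5, 20.2 and 24.4 CPM (log2 fold change 1.06 ± 0.19), a call lost without replicate 1 of the high dose. IDI1, isopentenyl diphosphate isomerase, and FDPS, farnesyl diphosphate synthase, rose too, by log2 fold changes of 0.71 ± 0.10 and 1.06 ± 0.17. IDI1 had 117 and 119.8 CPM against 73.6, 72.2 and 71.0 CPM. MVD, the decarboxylase that makes the substrate of IDI1, had 50.4 and 52.6 CPM against 21.4, 21.4 and 20.8 CPM, which did not pass the test (edgeR log2 fold change 1.28 ± 0.36, adjusted p = 0.059) though the ranges did not overlap; in the fit of the other 55 libraries its standard error was 0.08 and its adjusted p, by edgeR, was 3.62e-14. PMVK, phosphomevalonate kinase, and GGPS1, which leads away from sterols to geranylgeranyl diphosphate, were not called, with log2 fold changes of -0.16 ± 0.41 and -0.10 ± 0.09.

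Among the sensing genes SREBF2 had 162 and 158 CPM at the high Yijung-tang dose, against 103, 97.7 and 98.8 CPM in vehicle libraries (edgeR log2 fold change 0.68 ± 0.10, adjusted p = 3.39e-05). INSIG2 had 10.6 and 12.2 CPM against 10.3, 11.2 and 9.42 CPM (log2 fold change 0.14 ± 0.15). SCAP had 64.9 and 63.5 CPM against 68.5, 67.9 and 68.4 CPM (log2 fold change -0.09 ± 0.07). The ranges of INSIG2 overlapped, and both treated libraries of SCAP lay below every vehicle library by a few CPM. MBTPS1 had 120.0 and 117 CPM against 119.6, 109 and 110.2 CPM. MBTPS2 had 79.6 and 80.1 CPM against 85.7, 89.1 and 83.4 CPM. None of these 4 was called. Of the carriers, TMEM97 had 180.0 and 176 CPM against 139.8, 139 and 143 CPM (log2 fold change 0.34 ± 0.08), a call lost without either treated library. STARD4, which moves cholesterol between membranes, had 45.2 and 48.3 CPM against 27.8, 29.1 and 29.04 CPM and did not pass the test (log2 fold change 0.70 ± 0.23, edgeR adjusted p = 0.124).

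Within Yijung-tang, without the vehicle, the high dose against the low dose gave 16 genes higher, where 0.285% of all tested genes were called higher. There were 21 in the fit of the other 55 libraries, beside 1.31%. INSIG1 had the largest difference, 86.3 and 82.03 CPM at the high dose against 30.9 and 29.3 CPM at the low dose (edgeR log2 fold change 1.48 ± 0.13, adjusted p = 2.15e-10). MSMO1 followed, with 101 and 111 CPM against 40.3 and 37.7 CPM (edgeR log2 fold change 1.45 ± 0.14, adjusted p = 2.88e-09). NSDHL was the gene called against vehicle and not within the extract (edgeR log2 fold change 0.56 ± 0.15, adjusted p = 0.085). At the low and medium doses none of the 28 differed from vehicle by edgeR, and by DESeq2 also none. By edgeR 1 and 0 had an unadjusted p below 0.05, beside 4% and 3.51% of all tested genes.

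**Figure D2:**
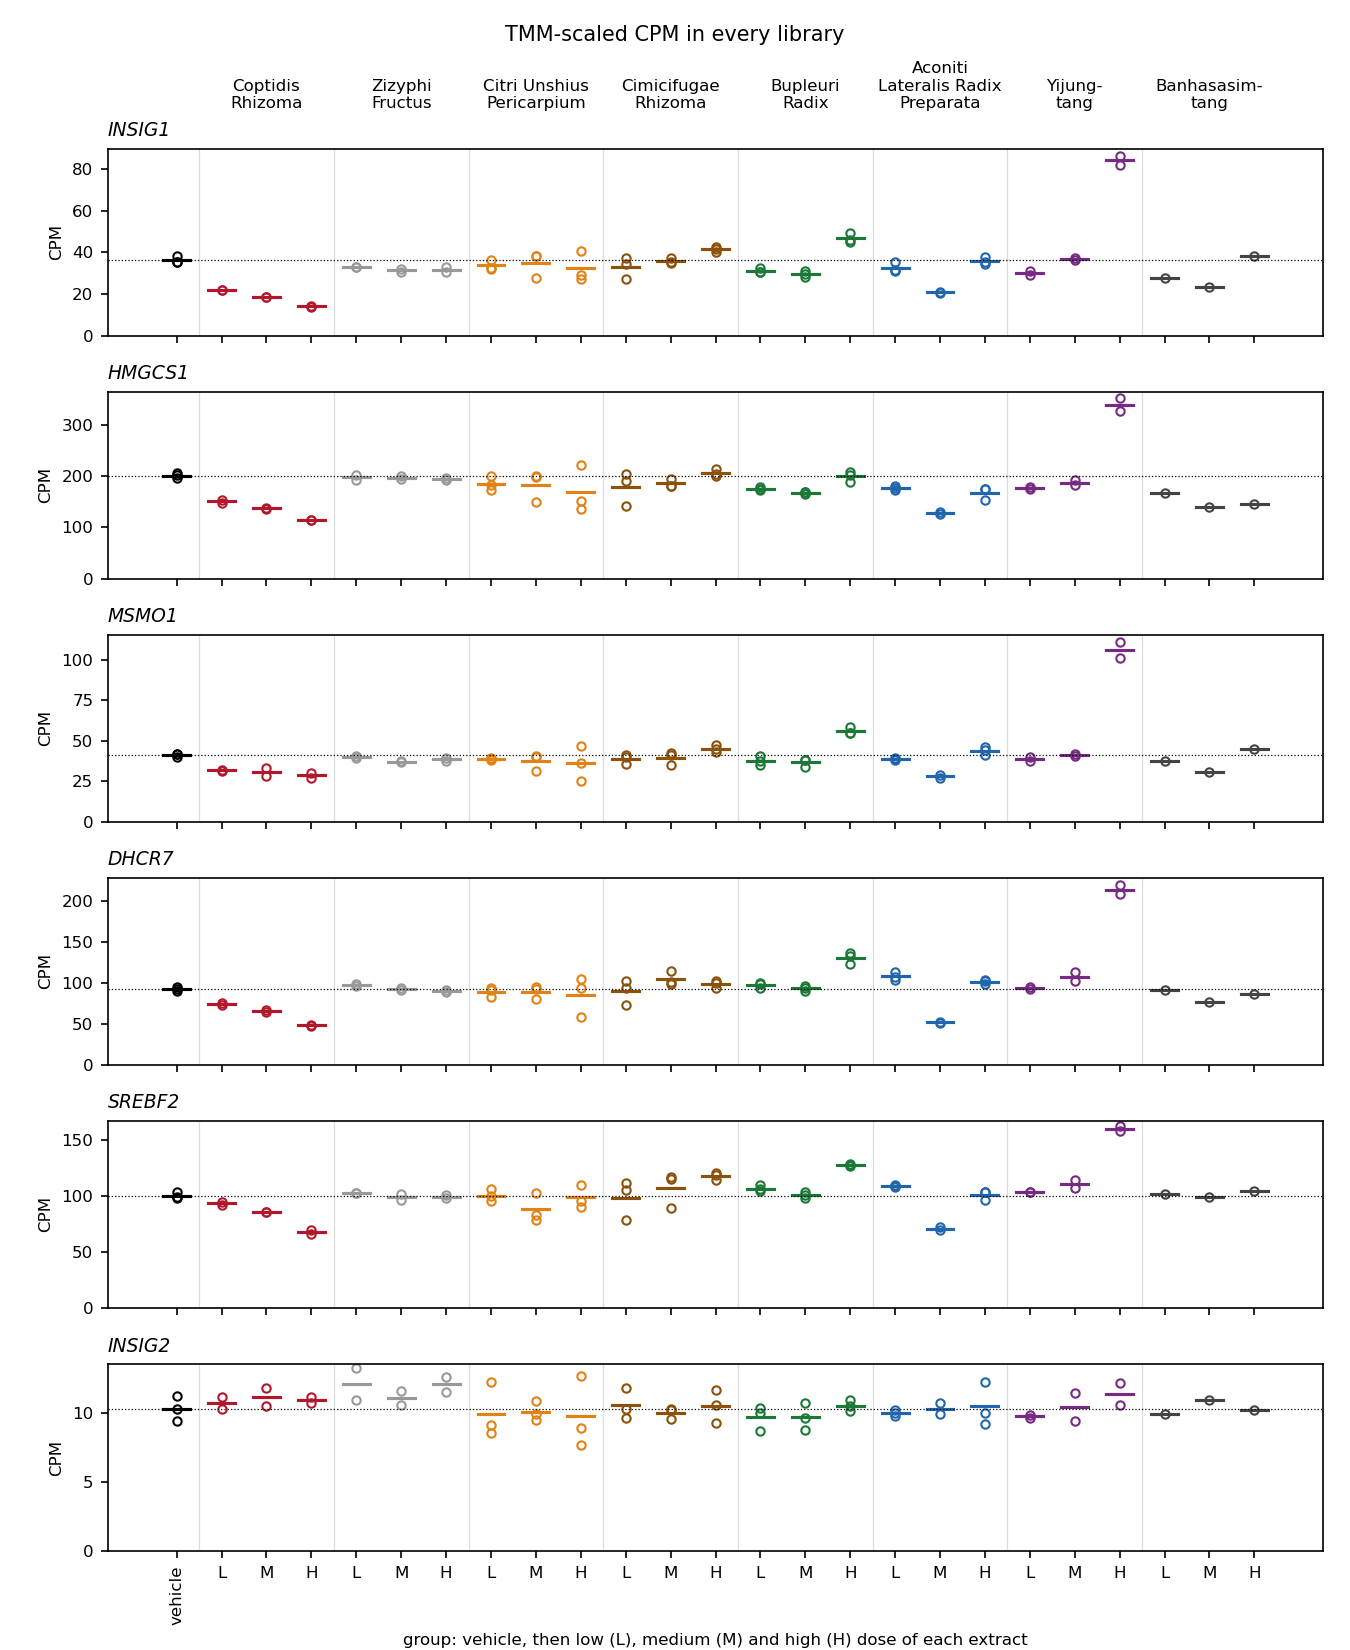
TMM-scaled CPM of 6 genes in every library (open circles) with group means (bars), for vehicle and the low (L), medium (M) and high (H) dose of each extract; the dotted line is the vehicle mean and each y axis starts at 0. INSIG1, HMGCS1, MSMO1, DHCR7 and SREBF2 are highest at the high Yijung-tang dose and step down over the Coptidis Rhizoma doses, while INSIG2 stays between 7.72 and 13.3 CPM in all 59 libraries.

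Coptidis Rhizoma had the opposite direction and a graded one. Against vehicle 3 of the 28 genes were lower at the low dose, 11 at the medium dose and 18 at the high dose, and none was higher, where 0.145%, 1.51% and 6.14% of all tested genes were called lower and 0.302%, 1.76% and 6.41% higher. The medians of the 28 log2 fold changes were -0.26, -0.38 and -0.54 over the rising doses. At the high dose 4 of the 8 mevalonate genes, 9 of the 12 enzymes from squalene onward, 3 of the 6 sensing genes and both carriers fell. In the fit of the other 55 libraries 13, 19 and 23 genes were lower over the rising doses, beside 1.86%, 6.22% and 13.8% of all genes, and GGPS1 was higher at the high dose. The count of 11 at the medium dose was 6 without vehicle replicate 1 or 3, 5 without medium-dose replicate 2 and 4 without medium-dose replicate 3; the count of 3 at the low dose was 1 without either low-dose library.

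INSIG1 had the largest fall at each dose. Its CPM was 35.5, 35.3 and 38.0 in vehicle libraries, 21.7 and 22.1 at the low dose, 18.5 and 18.5 at the medium dose and 13.9 and 14.2 at the high dose. No 2 of these groups overlapped. Against vehicle the edgeR log2 fold changes were -0.73 ± 0.12, -0.97 ± 0.12 and -1.37 ± 0.12 over the rising doses, with adjusted p-values of 0.000429, 9.58e-07 and 1.12e-10, and all 3 calls held without any 1 library of the groups compared. IDI1 had 73.6, 72.2 and 71.0 CPM in vehicle libraries, 48.2 and 50.3 CPM at the low dose, 40.1 and 45.2 CPM at the medium dose and 34.5 and 33.5 CPM at the high dose, again without overlap. Its log2 fold changes were -0.56 ± 0.11, -0.76 ± 0.11 and -1.09 ± 0.11; the call at the low dose was lost without either low-dose library. SQLE, the other gene called at all 3 doses, had 90.1 and 90.2 CPM at the high dose against 135, 123 and 126 CPM in vehicle libraries (edgeR log2 fold change -0.51 ± 0.07, adjusted p = 3.76e-06); its low-dose call was lost in 4 of the 5 fits that left out 1 library and its medium-dose call without medium-dose replicate 3.

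Among the other enzymes, DHCR7 had 48.7 and 47.9 CPM at the high Coptidis Rhizoma dose, against 94.5, 90.6 and 93.0 CPM in vehicle libraries (edgeR log2 fold change -0.94 ± 0.13, adjusted p = 1.01e-06). MVK had 11.3 and 11.6 CPM against 23.5, 20.2 and 24.4 CPM (log2 fold change -0.99 ± 0.21). HMGCS1 had 115 and 114 CPM against 202, 206 and 197 CPM (log2 fold change -0.81 ± 0.13). The fitted levels of these 3 genes were 0.505 to 0.569 of the vehicle level, without overlap. LSS had 21.2 and 23.7 CPM against 39.5, 38.2 and 40.5 CPM (log2 fold change -0.81 ± 0.10). ACAT2 had 21.3 and 19.9 CPM against 33.7, 31.7 and 33.2 CPM (log2 fold change -0.67 ± 0.12). FDFT1 had 76.3 and 76.7 CPM against 117, 112 and 123 CPM (log2 fold change -0.62 ± 0.07). All treated libraries of these 3 genes lay below every vehicle library. HSD17B7 had 8.05 and 7.13 CPM against 13.0, 12.6 and 12.5 CPM (log2 fold change -0.74 ± 0.12). CYP51A1 and MSMO1 moved less, with 88.1 and 88.0 CPM against 117, 115 and 114 CPM and 27.2 and 30.1 CPM against 39.8, 42.1 and 41.7 CPM (log2 fold changes -0.39 ± 0.09 and -0.53 ± 0.13); the call of MSMO1 was lost without high-dose replicate 2. EBP, the sterol isomerase, and NSDHL were called at the high dose (log2 fold changes -0.83 ± 0.28 and -0.45 ± 0.14), but neither call held when any 1 library of the comparison was left out. PMVK, MVD, FDPS, LBR and SC5D had log2 fold changes of -0.45, -0.86, -0.47, -0.39 and -0.30 and did not pass the test; TM7SF2 and GGPS1 lay above vehicle, at 0.26 and 0.24, without passing it.

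In the sensing group SREBF2 had 69.5 and 65.9 CPM at the high Coptidis Rhizoma dose, against 103, 97.7 and 98.8 CPM in vehicle libraries (edgeR log2 fold change -0.56 ± 0.10, adjusted p = 0.00017). SCAP had 53.6 and 52.9 CPM against 68.5, 67.9 and 68.4 CPM (edgeR log2 fold change -0.36 ± 0.07, adjusted p = 0.000671). Both genes were lower in both treated libraries. INSIG2 had 11.1 and 10.7 CPM against 10.3, 11.2 and 9.42 CPM. MBTPS1 had 112 and 111 CPM against 119.6, 109 and 110.2 CPM. MBTPS2 had 74.2 and 72.9 CPM against 85.7, 89.1 and 83.4 CPM. INSIG2, MBTPS1 and MBTPS2 were not called. Both carriers fell. TMEM97 had 87.0 and 88.2 CPM against 139.8, 139 and 143 CPM (log2 fold change -0.68 ± 0.08). STARD4 had 13.3 and 14.2 CPM against 27.8, 29.1 and 29.04 CPM (log2 fold change -1.06 ± 0.24), a call lost without high-dose replicate 2.

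The share of counts from the mitochondrial ribosomal RNA genes was 6.09% to 11.1% in Coptidis Rhizoma libraries and 2.24% to 2.43% in vehicle libraries, and 2.05% to 2.81% with Zizyphi Fructus. Antisense genes had 2680 and 2684 CPM at the low Coptidis Rhizoma dose, 2754 and 2760 CPM at the medium dose and 3132 and 3137 CPM at the high dose, against 2761 to 2805 CPM in vehicle libraries and 2863 and 2881 CPM at the high Zizyphi Fructus dose. The high-dose values are the highest outside the 4 libraries that stood apart, and their part in the falls at that dose was not tested. With all mitochondrial genes left out, 3, 9 and 18 genes were lower over the rising Coptidis Rhizoma doses. The shares of all genes called in that fit are not given here. Leaving these genes out cannot show whether the falls went with the mitochondrial RNA, which was not tested. The high dose of Coptidis Rhizoma against that of Zizyphi Fructus, both of 1 set and without a vehicle library, gave 17 genes lower and none higher, where 4.02% of all tested genes were called lower. The count was 11 without high-dose replicate 3 of Coptidis Rhizoma. In the fit of the other 55 libraries 22 were lower, beside 10.1%, and GGPS1 was higher. INSIG1 had 13.9 and 14.2 CPM with Coptidis Rhizoma and 33.0 and 30.3 CPM with Zizyphi Fructus (edgeR log2 fold change -1.17 ± 0.13, adjusted p = 3.91e-08). MVK followed, with 11.3 and 11.6 CPM against 24.0 and 24.6 CPM (edgeR log2 fold change -1.09 ± 0.22, adjusted p = 0.000759). The high against the low dose of Coptidis Rhizoma gave 8 genes lower (ACAT2, IDI1, FDFT1, LSS, DHCR7, INSIG1, SREBF2 and TMEM97), where 1.38% of all genes were called lower and 0.932% higher. That count was 0 and 2 without high-dose replicates 2 and 3, 1 and 2 without low-dose replicates 2 and 3, and 17 in the fit of the other 55 libraries, beside 4.54% of all genes.

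With Zizyphi Fructus, the other extract of that set, none of the 28 genes was called at any dose. By edgeR 0 of the 28 and 0% of all tested genes were called at each dose, and DESeq2 also called none of the 28. At an unadjusted p below 0.05 by edgeR there were 0 of the 28 at each dose, beside 2.36% to 2.68% of all tested genes. The log2 fold changes over the 3 doses ran from -0.25 to 0.23. INSIG1 was at 33.0 and 30.3 CPM at the high dose, against 35.5, 35.3 and 38.0 CPM in vehicle libraries, and SQLE at 124 and 124 CPM against 135, 123 and 126 CPM.

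**Figure D3:**
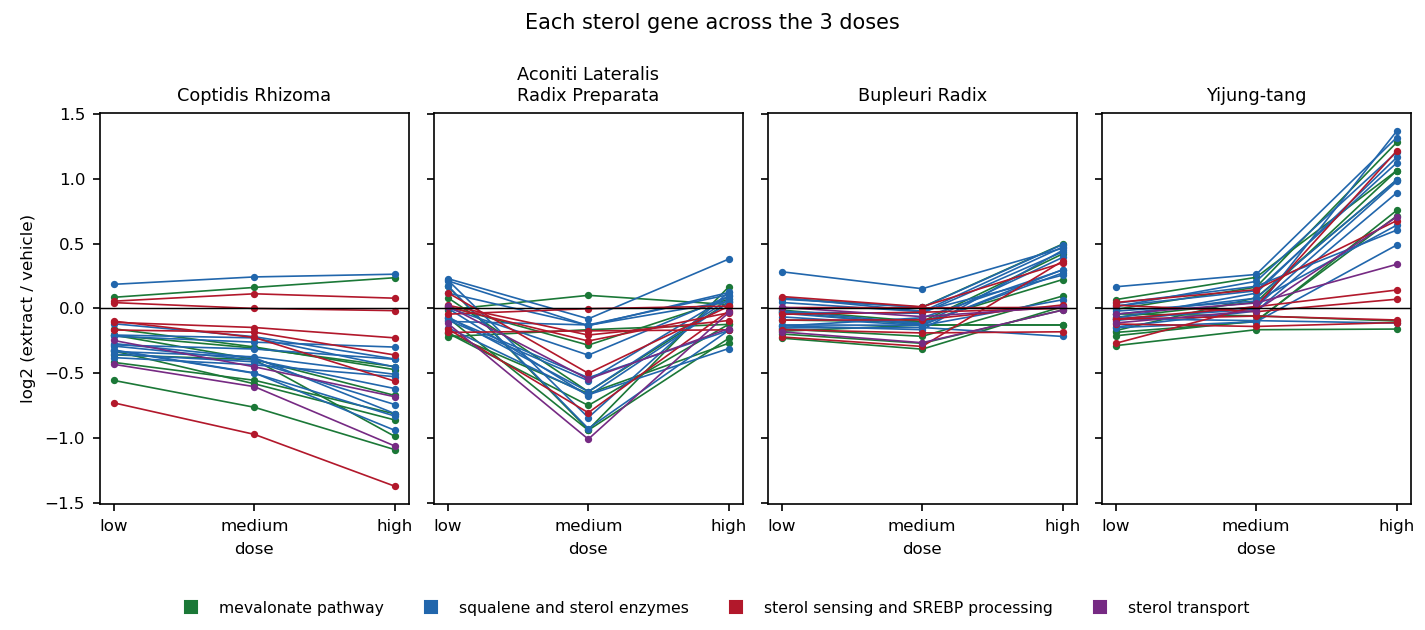
Log2 fold change over vehicle (y axis) at the low, medium and high dose (x axis) for the 4 extracts with most called genes; each line is 1 of the 28 genes, coloured by role. Coptidis Rhizoma lines fan downward with dose (medians -0.26, -0.38 and -0.54), Aconiti Lateralis Radix Preparata lines dip at the medium dose only, and Bupleuri Radix and Yijung-tang lines lift at the high dose (medians 0.24 and 0.74).

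Aconiti Lateralis Radix Preparata lowered much of the pathway at its medium dose, while no gene was called at the higher or the lower one. At the medium dose 16 of the 28 genes were lower than vehicle and none higher; the change was broad in these cells, since 9.28% of all tested genes were called lower and 8.23% higher. At the low and high doses 0 of the 28 were called by edgeR, where 0% and 2.09% of all genes were called lower and 0% and 2.56% higher. Of the 28, 2 and 3 had an unadjusted p below 0.05 by edgeR, beside 6.54% and 15.1% of all tested genes. DESeq2 called none at either dose. In the fit of the other 55 libraries the low, medium and high doses had 0, 21 and 5 genes lower, beside 1.47%, 16.3% and 7.74% of all genes, and 1, 0 and 1 higher, beside 0.676%, 16.5% and 7.24%. At the medium dose 4 mevalonate genes, 7 enzymes from squalene onward, 3 sensing genes and both carriers fell, with a median log2 fold change of -0.54 over the 28 and -0.01 over all tested genes.

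STARD4 had 13.5 and 15.0 CPM at the medium Aconiti Lateralis Radix Preparata dose, against 27.8, 29.1 and 29.04 CPM in vehicle libraries (edgeR log2 fold change -1.01 ± 0.24, adjusted p = 0.00182); its call was lost without medium-dose replicate 1. ACAT2 had 17.9 and 16.4 CPM against 33.7, 31.7 and 33.2 CPM (edgeR log2 fold change -0.94 ± 0.12, adjusted p = 8.49e-08). MVK had 12.4 and 11.3 CPM against 23.5, 20.2 and 24.4 CPM (log2 fold change -0.94 ± 0.20). The fitted levels of these 3 genes were 0.497 to 0.523 of the vehicle level. LSS had 19.6 and 21.8 CPM against 39.5, 38.2 and 40.5 CPM (log2 fold change -0.93 ± 0.10). DHCR7 had 51.2 and 52.3 CPM against 94.5, 90.6 and 93.0 CPM (log2 fold change -0.84 ± 0.13). INSIG1 had 20.5 and 21.1 CPM against 35.5, 35.3 and 38.0 CPM (log2 fold change -0.80 ± 0.12). In these 3 genes, too, every treated library was below every vehicle library. IDI1 had 45.1 and 41.0 CPM against 73.6, 72.2 and 71.0 CPM (log2 fold change -0.75 ± 0.11). HMGCS1 had 126 and 129 CPM against 202, 206 and 197 CPM (log2 fold change -0.66 ± 0.13). These groups did not overlap either.

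FDFT1 had 74.3 and 72.9 CPM at the same dose, against 117, 112 and 123 CPM in vehicle libraries (log2 fold change -0.67 ± 0.07). HSD17B7 had 7.13 and 9.11 CPM against 13.0, 12.6 and 12.5 CPM (log2 fold change -0.64 ± 0.12). MSMO1, SQLE and TMEM97 fell as well (log2 fold changes -0.56, -0.36 and -0.55). MSMO1 had 28.8 and 27.2 CPM against 39.8, 42.1 and 41.7 CPM. SQLE had 102 and 97.8 CPM against 135, 123 and 126 CPM. TMEM97 had 97.97 and 94.6 CPM against 139.8, 139 and 143 CPM. LBR, a sterol reductase that is also a receptor for lamin, fell with a log2 fold change of -0.67 ± 0.17; its call was lost without either medium-dose library. CYP51A1 was not called (log2 fold change -0.13 ± 0.09). SREBF2 had 69.4 and 71.9 CPM against 103, 97.7 and 98.8 CPM (edgeR log2 fold change -0.50 ± 0.10, adjusted p = 0.00044). SCAP had 58.2 and 60.3 CPM against 68.5, 67.9 and 68.4 CPM, a call at an adjusted p of 0.0498 by edgeR that was lost in all 5 fits that left out 1 library. INSIG2 had 9.94 and 10.7 CPM against 10.3, 11.2 and 9.42 CPM. MBTPS1 had 94.8 and 95.1 CPM against 119.6, 109 and 110.2 CPM. MBTPS2 had 73.8 and 78.9 CPM against 85.7, 89.1 and 83.4 CPM. None of these 3 was called.

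Since the medium dose stood apart from both its neighbours, 2 comparisons without the vehicle were added after the values had been seen. The medium against the high dose gave 14 genes lower, where 4.64% of all genes were called lower. The medium against the low dose gave 16 lower, where 9.87% were. The fit of the other 55 libraries gave 22 in each, beside 10% and 16.1% of all genes. LSS had 40.8, 44.9 and 47.7 CPM at the low dose, 19.6 and 21.8 CPM at the medium dose and 35.6, 34.4 and 35.1 CPM at the high dose. The log2 fold change of the medium dose was -1.10 ± 0.10 over the low dose and -0.76 ± 0.10 over the high dose. INSIG1 had 35.2, 31.4 and 30.9 CPM at the low dose, 20.5 and 21.1 CPM at the medium dose and 35.4, 34.2 and 37.8 CPM at the high dose, so the medium dose was the lowest of the 3 without overlap. The high against the low dose gave LSS alone, lower (log2 fold change -0.34 ± 0.08), where 1.72% of all genes were called lower; that call was lost without replicate 2 or 3 of either dose. The fit of the other 55 libraries gave LSS and TMEM97 lower, beside 4.67% of all genes, and CYP51A1 higher, beside 5.03%.

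Bupleuri Radix raised a part of the pathway at its high dose. In that comparison with vehicle 8 of the 28 genes were higher and none lower, where 2.05% of all tested genes were called higher and 1.31% lower: FDFT1, SQLE, LSS, CYP51A1, MSMO1, DHCR7, INSIG1 and SREBF2. None of the 8 mevalonate genes was called, and their median log2 fold change was 0.06, against 0.35 for the 12 enzymes from squalene onward; the difference between the roles was not tested. The fit of the other 55 libraries gave 15 higher, beside 7.21% of all genes, among them MVK, MVD and FDPS, and 2 lower (LBR and MBTPS2), beside 7.09%. The count of 8 was 4 without vehicle replicate 2 or 3 and 5 without high-dose replicate 1.

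SQLE had 172, 175 and 174 CPM at the high Bupleuri Radix dose, against 135, 123 and 126 CPM in vehicle libraries (edgeR log2 fold change 0.44 ± 0.07, adjusted p = 2.44e-05). DHCR7 had 132, 137 and 122 CPM against 94.5, 90.6 and 93.0 CPM (edgeR log2 fold change 0.49 ± 0.11, adjusted p = 0.00608). LSS had 56.7, 53.0 and 54.4 CPM against 39.5, 38.2 and 40.5 CPM (edgeR log2 fold change 0.47 ± 0.08, adjusted p = 0.000271). In these 3 genes the treated libraries lay above every vehicle library. FDFT1 had 152, 151 and 159.7 CPM against 117, 112 and 123 CPM (log2 fold change 0.39 ± 0.06). The calls of these 4 genes held without any 1 library. MSMO1 had 55.1, 54.98 and 58.7 CPM against 39.8, 42.1 and 41.7 CPM. CYP51A1 had 144, 140.0 and 143 CPM against 117, 115 and 114 CPM. SREBF2 had 128, 128 and 126 CPM against 103, 97.7 and 98.8 CPM. Each of these 3 calls was lost without vehicle replicate 2 or 3, as well as in other fits that left out 1 library. INSIG1 had 46.1, 44.8 and 49.4 CPM against 35.5, 35.3 and 38.0 CPM (edgeR log2 fold change 0.37 ± 0.10, adjusted p = 0.0405), and its call was lost in all 6 such fits.

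Genes of the mevalonate pathway did not pass the test. HMGCS1 had 202, 189.7 and 208 CPM at the high Bupleuri Radix dose against 202, 206 and 197 CPM. IDI1 had 73.2, 67.7 and 78.3 CPM against 73.6, 72.2 and 71.0 CPM. ACAT2 had 34.0, 34.6 and 36.8 CPM against 33.7, 31.7 and 33.2 CPM. The ranges of HMGCS1 and IDI1 overlapped. MVK had 30.4, 32.8 and 32.9 CPM against 23.5, 20.2 and 24.4 CPM without overlap but did not pass the test (log2 fold change 0.50 ± 0.17, edgeR adjusted p = 0.124). MVD had 30.1, 27.4 and 27.6 CPM against 21.4, 21.4 and 20.8 CPM, and FDPS 116.6, 109.6 and 113.8 CPM against 93.3, 97.3 and 100.7 CPM. These ranges did not overlap either. MVK, MVD and FDPS were called higher in the fit of the other 55 libraries. HSD17B7 also lay above vehicle, at 15.3, 14.5 and 16.9 CPM against 13.0, 12.6 and 12.5 CPM, without a call, and TMEM97 was at 141, 142 and 142 CPM against 139.8, 139 and 143 CPM. SCAP had 68.8, 68.3 and 67.8 CPM against 68.5, 67.9 and 68.4 CPM. MBTPS1 had 114, 116 and 110.2 CPM against 119.6, 109 and 110.2 CPM. MBTPS2 had 76.8, 74.3 and 76.9 CPM against 85.7, 89.1 and 83.4 CPM. INSIG2 had 10.9, 10.5 and 10.2 CPM against 10.3, 11.2 and 9.42 CPM. The ranges of SCAP, MBTPS1 and INSIG2 overlapped those of vehicle, and MBTPS2 lay below it in all 3 libraries without a call.

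Without the vehicle, the high against the low dose of Bupleuri Radix gave 8 genes higher, where 1.02% of all genes were called higher. There were 15 in the fit of the other 55 libraries, beside 3.26%. HSD17B7 was called here and SREBF2 was not. INSIG1 had 46.1, 44.8 and 49.4 CPM at the high dose against 30.3, 30.5 and 32.6 CPM at the low dose (edgeR log2 fold change 0.59 ± 0.10, adjusted p = 0.000433). MSMO1 had 55.1, 54.98 and 58.7 CPM against 37.4, 34.8 and 40.4 CPM (edgeR log2 fold change 0.58 ± 0.11, adjusted p = 0.00154). At the low and medium doses 0 of the 28 were called against vehicle by edgeR, and DESeq2 called none. By edgeR 2 and 4 had an unadjusted p below 0.05, beside 7.36% and 7.11% of all tested genes. The fit of the other 55 libraries gave 0 and 3 lower, beside 2.16% and 2.3% of all genes. At high doses, Bupleuri Radix against Aconiti Lateralis Radix Preparata, of the same set, gave FDFT1, SQLE and LSS higher, where 0.856% of all genes were called higher. The fit of the other 55 libraries gave 14 genes higher, beside 3.05%. LSS had 56.7, 53.0 and 54.4 CPM with Bupleuri Radix against 35.6, 34.4 and 35.1 CPM with Aconiti Lateralis Radix Preparata (edgeR log2 fold change 0.64 ± 0.08, adjusted p = 3.28e-06). FDFT1 had 152, 151 and 159.7 CPM against 124, 119 and 122 CPM (edgeR log2 fold change 0.35 ± 0.06, adjusted p = 0.000918).

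**Figure D4:**
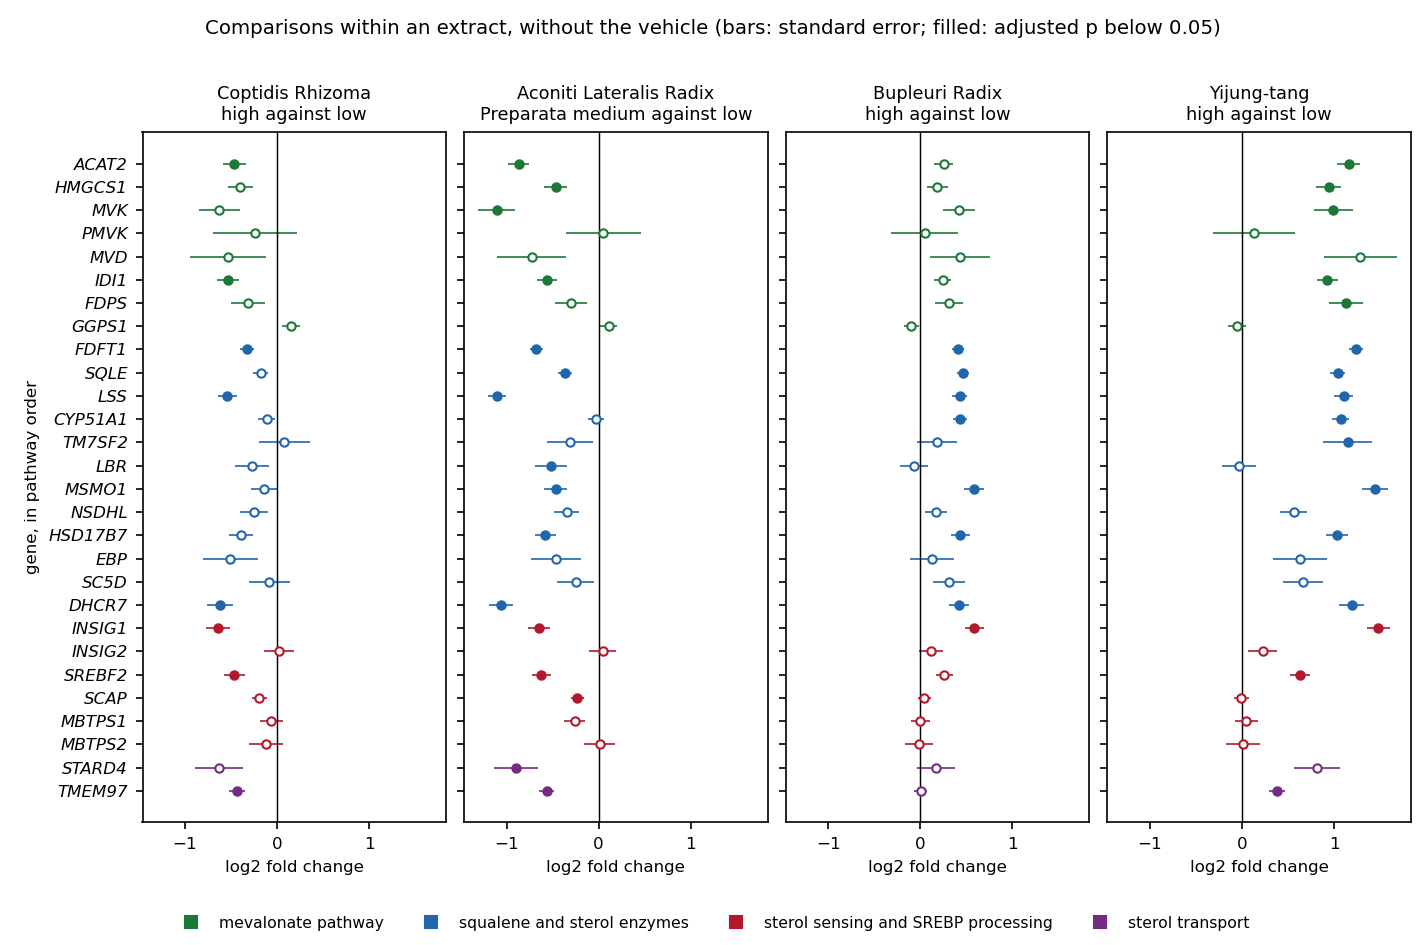
Log2 fold change of each of the 28 genes (rows, in pathway order, colour by role) between 2 doses of 1 extract, without the vehicle; bars are standard errors and filled points have an adjusted p below 0.05. Filled points lie left of 0 for Coptidis Rhizoma high against low (8 genes) and Aconiti Lateralis Radix Preparata medium against low (16 genes), and right of 0 for Bupleuri Radix high against low (8 genes) and Yijung-tang high against low (16 genes).

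The comparisons between doses of an extract share no libraries between extracts, so the genes they call can be set side by side. All 8 genes that were lower at the high than at the low Coptidis Rhizoma dose were among the 16 that were higher at the high than at the low Yijung-tang dose (100% of the first list, 50% of the second). Over all tested genes 13 were shared in this way, 5.08% of the 256 lower with Coptidis Rhizoma and 24.5% of the 53 higher with Yijung-tang. The 8 were also all among the 16 lower at the medium than at the low Aconiti Lateralis Radix Preparata dose, an overlap that was broad, since 73.8% of the 256 were lower there too. The list of 8 held 0 to 2 genes when 1 library was left out, and the Yijung-tang call of TMEM97, one of the 8, was lost in all 4 such fits. All 8 genes that were higher at the high than at the low Bupleuri Radix dose were among the same 16 of Yijung-tang, where over all tested genes 10.5% of the first list and 37.7% of the second were shared. FDFT1, LSS, DHCR7 and INSIG1 were in both the Coptidis Rhizoma list, as lower, and the Bupleuri Radix list, as higher. The matching overlap over all tested genes was not counted, so nothing is read from it. Over the 21 comparisons with vehicle, SQLE and INSIG1 were called most often, in 6 each (2 higher, 4 lower), and IDI1, FDFT1, LSS and DHCR7 in 5 each. PMVK, GGPS1, SC5D, INSIG2, MBTPS1 and MBTPS2 were called in none by edgeR in the fit of all 59 libraries.

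The set of Citri Unshius Pericarpium and Cimicifugae Rhizoma holds the 4 libraries that stood apart, and its calls changed when they were left out. At the high dose of Citri Unshius Pericarpium MVD and TM7SF2 were called higher than vehicle, where 3.52% of all tested genes were called higher and 0.905% lower. In the fit of the other 55 libraries none of the 28 was called, where 0.878% of all genes were called higher. MVD had 22.4, 19.2 and 103 CPM at the high dose, against 21.4, 21.4 and 20.8 CPM in vehicle libraries, so a single library lay far above the rest. Its log2 fold change was 1.17 ± 0.33 and was -0.04 in the fit of the other 55 libraries and -0.03 without replicate 3 of the high dose. TM7SF2 had 5.72, 6.57 and 15.2 CPM against 5.05, 5.72 and 5.02 CPM, with the same library highest. PMVK, not called, had 24.7, 24.2 and 113 CPM against 26.7, 26.2 and 28.2 CPM. The count of 2 was 0 without replicate 3 of the high dose or without any 1 vehicle library. It was 17 without high-dose replicate 1 (8 higher, 9 lower) and 8 without high-dose replicate 2 (7 higher, 1 lower). The shares of all genes called in these fits are not given here, so nothing is read from the counts beyond their instability.

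At the low and medium Citri Unshius Pericarpium doses and at all 3 Cimicifugae Rhizoma doses none of the 28 genes was called by edgeR, nor by DESeq2. At an unadjusted p below 0.05 by edgeR there were 0 and 2 for the low and medium Citri Unshius Pericarpium doses, beside 3.55% and 13.8% of all tested genes. At each Cimicifugae Rhizoma dose there were 2, beside 6.79% to 7.35% of all tested genes. Of all tested genes 0.00539% were called higher and 0% lower at the low Citri Unshius Pericarpium dose, 0.151% higher and 0.226% lower at the high Cimicifugae Rhizoma dose, 0.0162% higher and 0.0108% lower at its medium dose, and 0% either way at the others. In the fit of the other 55 libraries FDFT1, MVK and SREBF2 were higher at the high Cimicifugae Rhizoma dose (edgeR log2 fold changes 0.14, 0.31 and 0.23), beside 1.58% of all genes, and DHCR7 was higher at the medium dose, beside 1.78%. SREBF2 had 118, 114 and 120.0 CPM at the high Cimicifugae Rhizoma dose, against 103, 97.7 and 98.8 CPM in vehicle libraries. The high dose of Citri Unshius Pericarpium against its low dose gave SCAP, higher, where 3.12% of all genes were called higher. The call was lost in the fit of the other 55 libraries, without any 1 low-dose library and without high-dose replicate 3. In turn 15 and 7 genes were called without high-dose replicates 1 and 2. The high dose of Cimicifugae Rhizoma against that of Citri Unshius Pericarpium gave INSIG1 higher, where 1.41% of all genes were called higher, and PMVK, MVD and TM7SF2 lower, where 6.26% were called lower. None of these 4 calls remained in the fit of the other 55 libraries. The count was 0 without replicate 3 of the high Citri Unshius Pericarpium dose or any 1 high-dose Cimicifugae Rhizoma library. It was 20 without replicate 1 of the high Citri Unshius Pericarpium dose. The shares of all genes called in fits that left out 1 library are not given here, so nothing more is read from their counts.

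Banhasasim-tang had 1 library at each dose, so its values have no replicate check and no test. Counted as genes past 0.5 on the log2 scale from the vehicle mean, 0, 0 and 1 of the 28 were higher and 0, 4 and 3 lower over the rising doses, beside 7.42%, 8.41% and 13.6% of all genes higher and 5.42%, 6.03% and 10.5% lower. At the medium dose these were IDI1, INSIG1, STARD4 and HMGCS1, and at the high dose TM7SF2 (higher), IDI1, LBR and TMEM97. INSIG1 had 27.9, 23.1 and 38.0 CPM over the rising doses, beside 35.5, 35.3 and 38.0 CPM in vehicle libraries, so it was lowest at the medium dose and at the vehicle level at the high dose. IDI1 had 59.04, 45.4 and 46.9 CPM over the rising doses, beside 73.6, 72.2 and 71.0 CPM in vehicle libraries. The share of mitochondrial ribosomal RNA was 3.87%, 11.5% and 15.2% over the rising doses; its part in these values was not tested.

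Genes of neighbouring pathways were read mainly in the 4 comparisons with vehicle that called most sterol genes. Fatty acid synthesis and desaturation, which SREBP-1 and SREBP-2 share, had 12 of its 13 genes tested. The shares of all tested genes called higher and lower were 0.781% and 0.587% at the high Yijung-tang dose, 2.05% and 1.31% at the high Bupleuri Radix dose, 6.41% and 6.14% at the high Coptidis Rhizoma dose, and 8.23% and 9.28% at the medium Aconiti Lateralis Radix Preparata dose. At the high Yijung-tang dose 6 were higher and none lower, and at the high Bupleuri Radix dose 2 were higher and none lower. At the high Coptidis Rhizoma dose 1 was higher and 6 lower, and at the medium Aconiti Lateralis Radix Preparata dose 1 was higher and 7 lower. The fit of the other 55 libraries had 7 higher with Yijung-tang, 3 higher and 2 lower with Bupleuri Radix, 1 higher and 7 lower with Coptidis Rhizoma, and 2 higher and 7 lower with Aconiti Lateralis Radix Preparata. SCD, the stearoyl-CoA desaturase, had 2096 CPM at the high Yijung-tang dose against 908.2 CPM with vehicle (means; edgeR log2 fold change 1.21 ± 0.19, adjusted p = 9.64e-05), and FADS2 and FADS1, desaturases of polyunsaturated fatty acids, had log2 fold changes of 1.07 and 0.97. FADS1 and FADS2 were also the 2 genes that rose with Bupleuri Radix (0.34 and 0.28). Without the vehicle, none of the 12 was higher at the high than at the low Bupleuri Radix dose. In that comparison 1 was lower, where 1.02% of all tested genes were called higher and 0.56% lower. FADS1 and FADS2 also rose at the high Cimicifugae Rhizoma dose over vehicle (0.31 and 0.30). Between the high and low Yijung-tang doses 5 of the 12 were higher, where 0.285% of all tested genes were. With Coptidis Rhizoma 3 were lower, where 1.38% were. FADS2, SCD and ELOVL5, an elongase, had the largest falls with Coptidis Rhizoma (log2 fold changes -0.92, -0.91 and -0.59). SCD, FADS2 and ACLY, which makes cytosolic acetyl-CoA, had the largest with Aconiti Lateralis Radix Preparata (-1.17, -0.98 and -0.57). MID1IP1 was the gene that rose with both.

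Of the 9 genes of cholesterol export and the sterol receptor LXR, none was called at the high Yijung-tang dose. At the high Coptidis Rhizoma dose the export pumps ABCG1 and ABCA1 were higher than vehicle (edgeR log2 fold changes 1.93 ± 0.29 and 0.88 ± 0.28). ABCG1 averaged 1.71 CPM, against 0.447 CPM with vehicle, a low level in both. It was also called at the low Coptidis Rhizoma dose over vehicle, at 1.13 CPM. Without the vehicle, 0 of the 9 were called between the high and low Coptidis Rhizoma doses. Against the high Zizyphi Fructus dose, where ABCG1 averaged 0.728 CPM, ABCG1 alone was called, higher with Coptidis Rhizoma. Of all tested genes 4.1% were called higher there. At the medium Aconiti Lateralis Radix Preparata dose 3 rose and 3 fell, among them ABCG1 (1.00) and LPCAT3 (-0.95). At the high Bupleuri Radix dose MYLIP fell (-1.08). Over the low Bupleuri Radix dose 1 export gene was higher and 2 lower, ABCG1 (-1.45) and MYLIP (-0.77). Of all tested genes 1.02% were called higher there and 0.56% lower. Of the 13 genes that use farnesyl diphosphate for other ends, FNTB, ICMT and DOLK fell with Coptidis Rhizoma (-0.59, -0.54 and -0.41). In this list ICMT fell and DHDDS rose with Aconiti Lateralis Radix Preparata (-0.35 and 0.28), RABGGTB fell and DHDDS rose with Bupleuri Radix (-0.31 and 0.26). None was called with Yijung-tang. Of the 14 genes of lysosomal and intracellular sterol handling, 2 fell with Coptidis Rhizoma, among them GRAMD1B (-0.74), SCARB1 rose with Yijung-tang (0.32) and NPC2 rose with Bupleuri Radix (0.72). In it 2 rose and 2 fell with Aconiti Lateralis Radix Preparata, led by NCEH1 (1.13), LIPA (-0.54) and SCARB1 (-0.50). Of the 10 genes of sterol-dependent protein degradation, RNF145 fell with Yijung-tang (-0.28), VCP fell with Coptidis Rhizoma (-0.41), and none was called with Bupleuri Radix. In it 2 rose and 1 fell with Aconiti Lateralis Radix Preparata (AUP1 0.42, VCP -0.33 and RNF145 0.23). All of these values are log2 fold changes over vehicle, except where another reference is named. In lists of 9 to 14 genes, counts of 1 or 2 with Coptidis Rhizoma or Aconiti Lateralis Radix Preparata are near the shares of all genes called, and nothing is read from them.

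The fit of the other 55 libraries called more genes of these 4 lists. It called 4.44% of all genes higher and 4.66% lower at the high Yijung-tang dose, 7.21% and 7.09% at the high Bupleuri Radix dose, 14.1% and 13.8% at the high Coptidis Rhizoma dose, and 16.5% and 16.3% at the medium Aconiti Lateralis Radix Preparata dose. With Yijung-tang 1 export gene was higher and 1 lower, 4 genes of farnesyl diphosphate use were lower, 4 lysosomal genes were higher and 1 lower, and 1 degradation gene was lower. With Bupleuri Radix 1 export gene was higher and 2 lower, 2 genes of farnesyl diphosphate use were higher and 4 lower, 3 lysosomal genes were higher, and 2 degradation genes were lower. With Coptidis Rhizoma 2 export genes were higher and 2 lower, 1 gene of farnesyl diphosphate use was higher and 4 lower, 1 lysosomal gene was higher and 6 lower, and 2 degradation genes were lower. With Aconiti Lateralis Radix Preparata 4 export genes were higher and 4 lower, 2 genes of farnesyl diphosphate use were higher and 2 lower, 3 lysosomal genes were higher and 5 lower, and 2 degradation genes were higher and 2 lower.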

How the data were processed

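RNA was measured in 59 libraries of A549 cells, each treated for 24 h. The authors deposited expected counts per gene; the submitters' processing notes name FastQC 0.11.9, Trim Galore 0.6.5, STAR 2.7.3a, RSEM 1.3.3 and the builds hg38 and GRCh38, with no roles. In genes with any count, 84.4% of values were whole (tolerance 1e-09), and all were rounded here. The table held 210 further columns of per-sample values, which were not used. Libraries held 17214755 to 39751161 counts, and no 2 replicates agreed within sampling noise (lowest chi-square per gene 2.08).

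Genes with too few counts were removed (filterByExpr, minimum count 10, minimum total 15), which left 18568 genes. Counts were TMM-scaled and fitted with edgeR 4.0.16 (R 4.3.3, quasi-likelihood) over all 59 libraries with 1 mean for each of 25 groups, which leaves 34 residual degrees of freedom. The Benjamini-Hochberg adjustment was made over all genes of a comparison, and a gene was called below 0.05. Standard errors were derived from the log2 fold change and its F statistic. Of 33 comparisons, 21 set a dose against vehicle, 7 the high against the low dose, and 3 the high doses of the extracts of a set; 2 were added after the values had been seen. Banhasasim-tang was compared on log2 CPM with a prior count of 2. On simulated counts the fit was tested before use. Alternatives were DESeq2 1.42.0, RLE scaling, no filter, fits of the compared extracts alone, a replicate block, no mitochondrial genes, no library that stood apart, and each replicate left out in turn.

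The 28 genes and the neighbouring lists were chosen with earlier results of these data known, so none of them is an independent choice. Values in every library are given for genes called in 3 or more of the 21 comparisons with vehicle, the 2 most changed called genes of each comparison and the 6 sensing genes, and for some others chosen after their values were seen; from each neighbouring list at most 3 called genes are named, by size. Replicate numbers were taken to pair libraries in the comparison of high with low Citri Unshius Pericarpium only. The rule asked for at least 3 same-numbered pairs, each with a correlation above a set floor. Comparisons with 2 pairs were therefore left unpaired whatever their values. Correlations of same-numbered deviations were 0.122 to 0.235 over 3 pairs there. For high against low Cimicifugae Rhizoma they were 0.264, 0.245 and 0.004, and this was not taken as paired. In the set of these 2 extracts, first principal component scores were -18 to -2.5 in replicate 1 libraries and 2.8 to 91.9 in replicate 2 libraries. Gene identities are from GENCODE 29, which held 94.0% of the identifiers, and promoter windows from RefSeq (GRCh38.p14). Values of 2 genes of the pathway lists are not reported here, although the list counts include them.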

Additional observations from a re-analysis of the deposited data

Results flagged for a closer look

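Extracts of 1 set at the high dose were compared directly, a test of the difference between their effects, since both would be set against the same vehicle, and 3 such comparisons called genes of the pathway by edgeR. Coptidis Rhizoma against Zizyphi Fructus called 17 of the 28 genes, all lower with Coptidis Rhizoma and led by INSIG1 and MVK (log2 fold changes -1.17 and -1.09), where 4.02% of all tested genes were called lower. Cimicifugae Rhizoma against Citri Unshius Pericarpium called 4 genes, 1 higher and 3 lower, where 1.41% of all tested genes were called higher and 6.26% lower. None of the 4 was called without replicate 3 of the high Citri Unshius Pericarpium dose; in that library MVD was at 102.7 CPM, against 19.2 and 22.4 CPM in the other 2 of its group. Bupleuri Radix against Aconiti Lateralis Radix Preparata called 3 genes, FDFT1, SQLE and LSS, all higher with Bupleuri Radix, where 0.856% of all tested genes were called higher, and the count was 3 without any 1 of the libraries compared.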

How the results depend on the processing

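Counts are of the 28 genes called, by edgeR unless DESeq2 is named; the percentage in brackets is the share of all tested genes called in the same fit, in either direction. Over the 163 calls, a pair of gene and comparison each, 163 were kept with DESeq2, 159 with RLE scaling, 159 with the replicate block, 157 without mitochondrial genes, 156 in fits of the compared extracts alone, 156 without the 4 libraries that stood apart and 117 with no filter on low counts. In all 90 were kept in every fit, those leaving out 1 library included. Without the 4 libraries the counts were 13 (3.52%) and 19 (12.4%) for the low and medium Coptidis Rhizoma doses, 0 (1.45%) for high Citri Unshius Pericarpium, 3 (3.72%) and 1 (4.37%) for high and medium Cimicifugae Rhizoma, 17 (14.3%) and 3 (3.32%) for high and medium Bupleuri Radix, and 6 (15%) and 1 (2.15%) for high and low Aconiti Lateralis Radix Preparata, all against vehicle. For high against low they were 17 (9.05%) for Coptidis Rhizoma, 0 (0.851%) for Citri Unshius Pericarpium, 15 (5.56%) for Bupleuri Radix and 3 (9.71%) for Aconiti Lateralis Radix Preparata. They were 0 (2.49%) for Cimicifugae Rhizoma against Citri Unshius Pericarpium, 14 (5.22%) for Bupleuri Radix against Aconiti Lateralis Radix Preparata, and 22 (20.3%) for the medium against the high Aconiti Lateralis Radix Preparata dose. In the neighbouring lists the calls without those libraries were, for high Coptidis Rhizoma, 4 (export), 5 (isoprenoid use), 7 (lysosomal) and 2 (degradation), for high Bupleuri Radix 5 (fatty acids), 3, 6, 3 and 2 in the same order, for medium Aconiti Lateralis Radix Preparata 4 (isoprenoid use) and 8 (lysosomal), and for high Yijung-tang 2 (export), 4 (isoprenoid use) and 5 (lysosomal).

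In fits of the compared extracts alone, with the vehicle where it was compared, the counts against vehicle were 25 (26.7%) and 20 (13.9%) for medium and low Coptidis Rhizoma, 0 (0%) for high Citri Unshius Pericarpium, 6 (12.2%), 8 (12.5%) and 17 (26.2%) for low, medium and high Bupleuri Radix, 7 (22.9%) and 6 (7.28%) for high and low Aconiti Lateralis Radix Preparata and 2 (3.03%) for low Yijung-tang. For high against low they were 21 (27.3%) for Coptidis Rhizoma, 0 (0%) for Citri Unshius Pericarpium, 16 (9.72%) for Bupleuri Radix, and 5 (12.6%) for Aconiti Lateralis Radix Preparata. They were 0 (0.0356%) for Cimicifugae Rhizoma against Citri Unshius Pericarpium, 16 (8.98%) for Bupleuri Radix against Aconiti Lateralis Radix Preparata, and 23 (27.2%) for medium against high Aconiti Lateralis Radix Preparata. With no filter they were 4 (1.13%) for medium Coptidis Rhizoma, 6 (5.69%) for high Citri Unshius Pericarpium, 1 (0.739%) for low Cimicifugae Rhizoma and 5 (1.5%) for high Bupleuri Radix against vehicle. For high against low they were 2 (0.772%) for Coptidis Rhizoma, 5 (5.59%) for Citri Unshius Pericarpium, 1 (1.21%) for Cimicifugae Rhizoma, 3 (0.745%) for Bupleuri Radix and 0 (1.55%) for Aconiti Lateralis Radix Preparata, and 1 (0.691%) for Bupleuri Radix against Aconiti Lateralis Radix Preparata. DESeq2 gave 6 (0.84%) for low Coptidis Rhizoma, 6 (9.66%) for high Citri Unshius Pericarpium, 6 (8.85%) for its high against low dose, 8 (11.6%) for Cimicifugae Rhizoma against Citri Unshius Pericarpium and 6 (1.9%) for Bupleuri Radix against Aconiti Lateralis Radix Preparata. Without mitochondrial genes the count for high against low Citri Unshius Pericarpium was 0 (2.71%). With the replicate block the count was 7 (12.2%) for Cimicifugae Rhizoma against Citri Unshius Pericarpium. It was 5 (1.8%) for Bupleuri Radix against Aconiti Lateralis Radix Preparata. In neither comparison were numbers taken to pair the libraries. For high against low Citri Unshius Pericarpium, where they were, the count was 1 (8.04%), against 1 without the block. The cause of these changes was not tested.

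With 1 library left out at a time, the counts against vehicle ran from 1 to 3, 4 to 8 and 14 to 17 for low, medium and high Coptidis Rhizoma, 0 to 17 and 0 to 2 for high and medium Citri Unshius Pericarpium, 4 to 6 for high Bupleuri Radix, 13 to 15 for medium Aconiti Lateralis Radix Preparata and 13 to 17 for high Yijung-tang. For high against low they ran from 0 to 2 for Coptidis Rhizoma, 0 to 15 for Citri Unshius Pericarpium and 0 to 1 for Aconiti Lateralis Radix Preparata. They ran from 11 to 12 for Coptidis Rhizoma against Zizyphi Fructus and from 0 to 20 for Cimicifugae Rhizoma against Citri Unshius Pericarpium. Where this left 1 library in a group, it was assumed to vary like the other groups. The shares of all genes called in these fits are not given here, so the counts show only how far the calls moved. The direction of MVD turned at high Citri Unshius Pericarpium against vehicle, to a log2 fold change of -0.04 without the 4 libraries, and ran from -0.034 to 1.555 with 1 library left out, the lowest without replicate 3 of that dose. For Cimicifugae Rhizoma against Citri Unshius Pericarpium it turned to 0.113 without the 4 libraries and ran from -1.483 to 0.107 with 1 left out, the highest without the same replicate. No 2 replicates of a group agreed within sampling noise, so depth alone does not set the precision.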
